A study of Homo sapiens with 24 samples.

Results

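The regions described here are short intergenic stretches of H3K27Ac signal that lay within 10 kb of an annotated gene but touched none. They were taken from the comparison of shANCO1 with shCTRL cells in 2 human mammary epithelial lines. A region was included when it was narrower than 3000 bp, when the authors' annotation placed it on no gene, and when the same annotation named a gene to its left or right. This gave 4304 flank regions of 95074 regions in all, of which 2299 of 50284 were in MCF10A (10A) and 2005 of 44790 in MCFDCIS (DCIS). The choice used width and position only, and no measured change.

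H3K27Ac, acetylation of a lysine in the tail of histone H3, is carried by nucleosomes at active promoters and active enhancers. Enhancers often lie outside genes, are bound by transcription factors such as AP-1, and can act on a promoter some distance away, so that the gene nearest to an intergenic mark need not be the gene it acts on. ANCO1, the product of the ANKRD11 gene, is a nuclear cofactor known for recruiting histone deacetylases, the enzymes that remove such acetyl groups.

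10A is an immortalized, non-malignant mammary epithelial line, and DCIS is a line of the same lineage that forms lesions resembling ductal carcinoma in situ. Both lines lack estrogen and progesterone receptors. Each was infected with a lentivirus carrying either a hairpin against ANCO1 (genotype ANCO1 knockdown, shANCO1) or a hairpin against GFP (genotype shGFP control, shCTRL), and selected with puromycin. The 24 libraries formed 8 groups of 3, made up of an immunoprecipitated and an input group for each line and hairpin. All groups were thus infected and drug-selected cells grown in the same medium with EGF, hydrocortisone, insulin and cholera toxin. According to the study's legends a single hairpin line was used for this assay, so an effect of that hairpin cannot be told apart from loss of ANCO1. Whether the 3 libraries of a group came from separate cultures was not given in the sources used here.

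The deposited tables held 1 value per region for a whole group of 3 libraries. Spread between libraries, library depth and the number of reads behind a region were therefore unknown. A region is called up or down below when its FDR in the authors' deposited csaw table was under 0.05 and its direction was given as up or down in shANCO1 cells. The log2 fold change is that of a representative window of the region, shANCO1 over shCTRL. As a check of cell identity, a promoter region enriched over input in shCTRL cells was found for 4 of 6 basal markers in each line. These were KRT5, LAMB3 and ITGB4 in both lines, TP63 in 10A only and KRT17 in DCIS only, while KRT14 had none in either. Of 5 luminal markers, 3 had such a region in each line (GATA3, KRT8 and KRT18, not ESR1 or FOXA1). Of 4 markers of blood, vessel and stromal cells, PECAM1 had such a region in both lines, and PTPRC, CD79A and COL1A1 had none. No flank region lay beside ANKRD11 in either line, so these regions carry no check of the knockdown target itself.

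In GENCODE release 44, 1992 of the 10A regions (86.6%) and 1778 of the DCIS regions (88.7%) lay outside every gene body, and 98.5% and 99.0% lay outside every protein-coding gene. The remainder overlapped genes of GENCODE, mostly noncoding, that the authors' annotation had not placed there. Of the placements of a gene beside a region, 87.8% in 10A and 88.9% in DCIS named a gene of GENCODE, and of these 97.5% and 97.2% lay within 3 kb of it on GRCh38. Flank regions lay a median of 19520 bp from the nearest coding transcription start in 10A and 19852 bp in DCIS. Regions upstream of a gene began 5005 bp and 5002 bp away, since nearer ones carry the authors' promoter annotation, whereas regions downstream of a gene began 12 bp and 6 bp past its end. The flank regions named 2135 genes in 10A and 1880 in DCIS, and 421 and 373 of them named more than 1 gene. The nearest gene was protein-coding for 67.2% and 67.6% of regions.

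To show what such regions look like, 7 windows of 81 bases around an AP-1 motif are given, chosen among the named regions that hold the motif and that overlap no exon. The plus strand of hg38 is printed 5′ to 3′, with the match to TGACTCA or its reverse complement TGAGTCA in capitals. The first 3 are from regions up in 10A. They lie downstream of TWIST2 (chr2:238914720-238914800), upstream of PLAU (chr10:73899496-73899576) and upstream of CXCL8 (chr4:73730057-73730137).
TWIST2: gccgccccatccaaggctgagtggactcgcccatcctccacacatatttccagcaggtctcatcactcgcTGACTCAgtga
PLAU: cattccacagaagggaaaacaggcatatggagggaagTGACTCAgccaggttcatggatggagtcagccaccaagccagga
CXCL8: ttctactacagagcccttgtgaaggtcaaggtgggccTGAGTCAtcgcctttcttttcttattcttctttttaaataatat

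The next 3 windows are from regions up in DCIS and the last is from a region down in DCIS. They lie downstream of LINC02255 (chr15:74397077-74397157), upstream of ITGA3 (chr17:50047677-50047757), downstream of NUAK2 (chr1:205294518-205294598) and downstream of KCNJ16 (chr17:70137516-70137596). The LINC02255 window holds 2 matches and the other windows hold 1 each.
LINC02255: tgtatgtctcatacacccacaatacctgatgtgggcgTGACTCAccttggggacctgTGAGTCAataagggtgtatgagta
ITGA3: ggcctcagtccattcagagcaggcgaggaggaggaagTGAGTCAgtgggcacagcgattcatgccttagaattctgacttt
NUAK2: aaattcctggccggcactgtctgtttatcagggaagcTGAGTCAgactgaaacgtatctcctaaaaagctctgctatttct
KCNJ16: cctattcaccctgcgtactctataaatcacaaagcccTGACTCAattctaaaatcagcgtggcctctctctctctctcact

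Flank regions gained H3K27Ac far more often than they lost it in both lines. In 10A, 869 of 2299 flank regions (37.8%) were up, against 43.6% of all tested regions, and 5 (0.217%) were down, against 0.225%. In DCIS, 625 of 2005 (31.2%) were up, against 23.6% of all regions, and 116 (5.79%) were down, against 4.86%. The share of up regions was thus below that of all regions in 10A and above it in DCIS. Among regions under 3000 bp, the width limit of the flank regions, 39.1% were up in 10A and 23.0% in DCIS, which narrows the gap in 10A. The median log2 fold change of flank regions was 0.73 in 10A and 0.76 in DCIS, beside 0.76 and 0.52 over all regions. The values in 10A were narrowly spread, from -1.22 to 2.73, with 90.7% above 0. Those in DCIS ran from -4.72 to 4.34, with 71.9% above 0. Among regions that passed, the median was 1.10 for up regions in 10A and 1.83 in DCIS, and -1.15 and -1.80 for down regions.

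**Figure D1:**
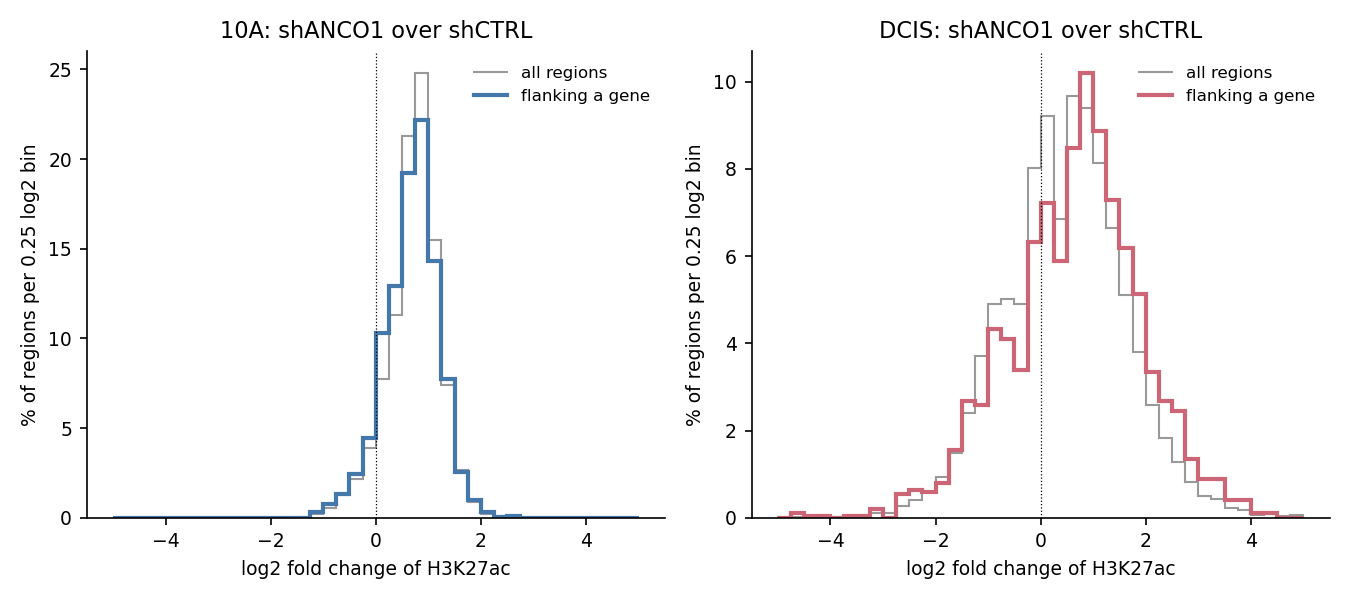
Share of regions (vertical axis, percent of the set in bins of 0.25) by log2 fold change of H3K27Ac, shANCO1 over shCTRL, in 10A (left) and DCIS (right), for flank regions (coloured line) and all tested regions (grey line). Flank regions follow all regions closely in 10A, with medians of 0.73 and 0.76, and lie to the right of them in DCIS, with medians of 0.76 and 0.52.

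The zero of these fold changes rests on a normalization that was not given in the sources used here. Centring each table on its own median, and asking for a change of 1 log2 unit or more from it, kept 32 flank regions up in 10A beside 5 down. In DCIS the same centring kept 468 up regions beside 116 down regions. Centring also turned the order in 10A, with 1.39% of flank regions and 1.14% of all regions up. Most of the 869 up regions in 10A therefore lay within 1 log2 unit of the median of the table. A fold change of 1 log2 unit or more, without centring, was reached by 578 of the up regions in 10A and by 621 in DCIS.

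Set beside the other annotation classes of the same width limit, flank regions resembled the remaining intergenic and intronic regions more than promoters. In 10A, the share of up regions was 45.4% at promoters, 42.4% over exons without a promoter, 31.5% in introns and 35.6% in isolated intergenic regions with no gene nearby. In DCIS, the promoter share was the lowest at 15.1%, and exonic (35.6%), intronic (30.2%) and isolated intergenic (31.1%) regions were near the 31.2% of flank regions. Flank regions and promoters thus stood in opposite order in the 2 lines. Promoter regions were also wider, with a median of 1200 bp against 700 bp for flank regions in 10A, and 900 bp against 600 bp in DCIS. In 10A the share of up regions rose with width, as given below, and the classes were not compared at equal width. These differences between classes were not tested, since regions are not replicates.

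**Figure D2:**
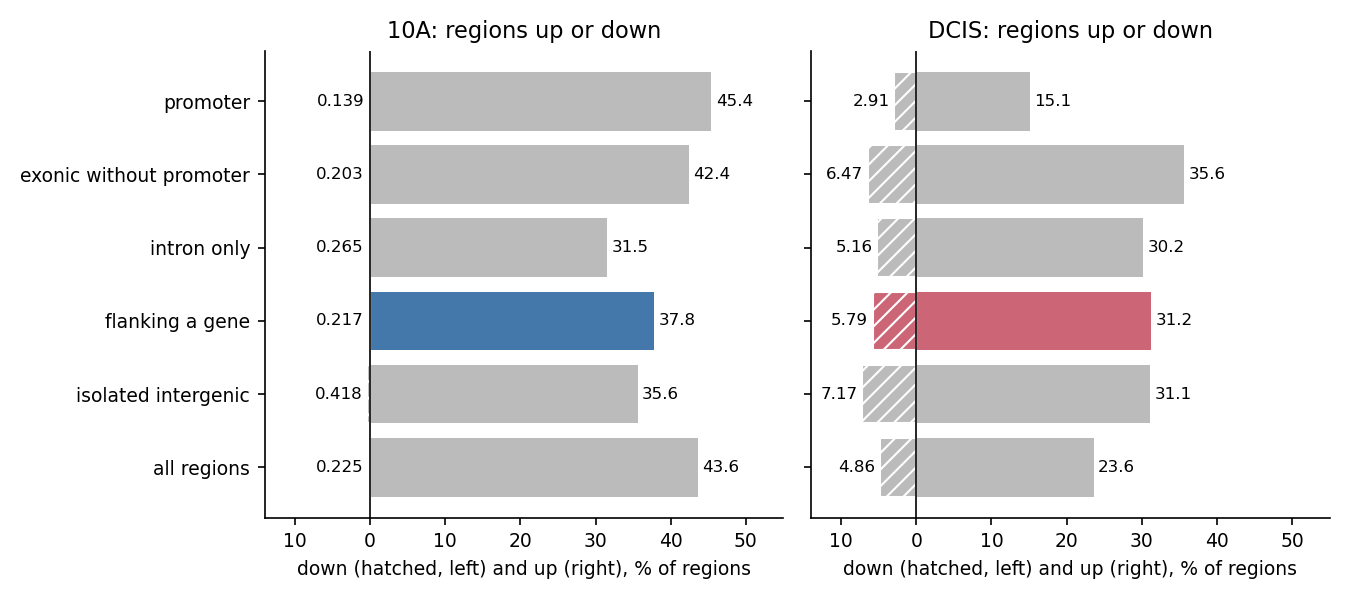
Percent of regions up (bars to the right) and down (hatched bars to the left) at an FDR under 0.05, by annotation class under 3000 bp and for all regions, in 10A (left) and DCIS (right). Flank regions (coloured) were up in 37.8% and 31.2%, while promoters were up in 45.4% and 15.1%.

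The width of a region moved with the call. In 10A, 19.5% of the flank regions of 200 to 400 bp were up, and this share was 34.4%, 49.2% and 66.2% in the following classes up to 2900 bp, close to all regions of the same width (19.1%, 30.2%, 49.1% and 67.9%). In DCIS, the shares of flank regions were 24.7%, 29.6%, 35.7% and 47.8%, whereas all regions stayed between 21.7% and 24.6%. The excess over all regions in DCIS was thus small for the narrowest regions and wider for the broad ones. A region of 200 bp can hold a single tested window, and 226 flank regions in 10A and 280 in DCIS did. Among up regions, every window was up in 258 of 869 (29.7%) in 10A and in 375 of 625 (60.0%) in DCIS. A single 10A region passed the FDR with mixed direction and was counted in neither direction.

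Position relative to the gene was compared next, with each region assigned to the nearest gene it flanks. In 10A, 586 of 1519 downstream regions (38.6%) and 283 of 780 upstream regions (36.3%) were up. In DCIS the order was the other way round, with 393 of 1347 downstream regions (29.2%) and 232 of 658 upstream regions (35.3%) up. The 10A order did not hold at an FDR under 0.01 (20.3% downstream and 20.5% upstream) or after centring (1.38% and 1.41%), whereas upstream regions stayed ahead in DCIS under both (25.5% and 21.2%, and 26.3% and 21.9%). The difference between sides was not tested. Within the downstream regions, those in the first 5 kb past the gene were up in 35.2% in 10A and 30.7% in DCIS, and those from 5 to 10 kb in 42.8% and 27.2%. At matched distances of 5 to 10 kb, downstream regions were thus up more often than upstream ones in 10A (42.8% and 36.3%) and less often in DCIS (27.2% and 35.3%). Upstream of genes in DCIS the share went from 40.5% at 5 to 6 kb to 31.0% at 9 to 10 kb, with 33.6% to 34.8% in between. The downstream shares in both lines and the upstream share in 10A rose and fell between neighbouring bins of 1 kb, and these bins held between 97 and 200 regions. Regions beside protein-coding genes and beside long noncoding RNAs were up at much the same rate, 37.6% and 37.9% in 10A and 31.0% and 31.4% in DCIS.

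**Figure D3:**
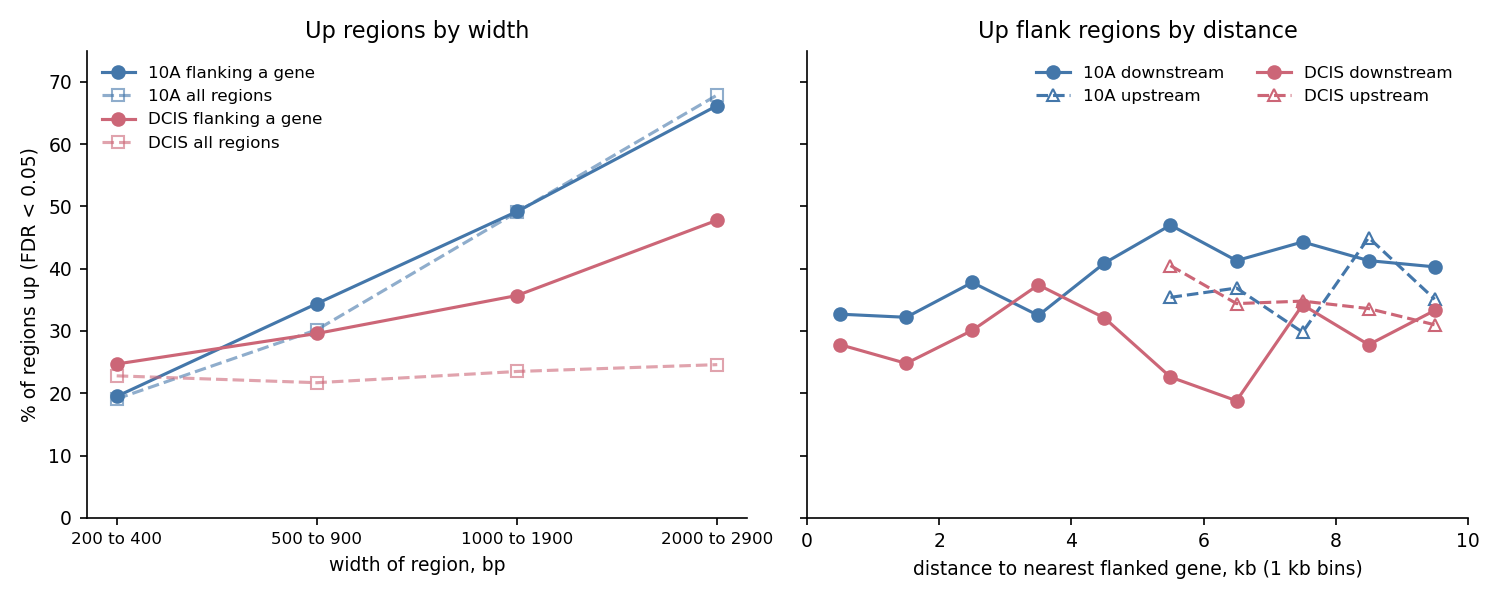
Percent of regions up at an FDR under 0.05 (vertical axis) by region width (left, flank regions as filled circles and all regions as open squares) and, for flank regions, by distance to the nearest flanked gene in bins of 1 kb (right, downstream circles, upstream triangles), in 10A (blue) and DCIS (red). The share rises with width from 19.5% to 66.2% in 10A and from 24.7% to 47.8% in DCIS. By distance, the upstream share in DCIS goes from 40.5% to 31.0%, and the other lines rise and fall.

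The comparisons of each group with input were used to see which flank regions met a strongly enriched region. The tables against input list only such regions. In 3 of 4 the highest FDR listed was 3.92e-08 or lower, while the table of shCTRL cells in DCIS ran to 0.228 and was limited here to an FDR under 0.05. The lowest log2 fold change over input in any of them was 1.74. A flank region was counted as enriched when it shared at least 1 bp with a listed region, so a region enriched in neither group is one not listed, which does not show that it lacked the mark. With an FDR under 1e-08 asked of every table, a limit added after the data were seen, the 8 counts of the 2 lines stayed close to those that follow, with 90 in place of 93 regions in shCTRL cells only in DCIS. Most flank regions met no listed region, 1595 (69.4%) in 10A and 1586 (79.1%) in DCIS. In 10A, 441 (19.2%) were enriched in shANCO1 cells only, 242 (10.5%) in both groups and 21 (0.913%) in shCTRL cells only. In DCIS these numbers were 200 (9.98%), 126 (6.28%) and 93 (4.64%). The direct comparison moved with this state, as the same immunoprecipitated libraries enter both. Regions enriched in shANCO1 cells only were up in 67.8% in 10A and 78.0% in DCIS, with a median log2 fold change of 0.97 and 1.74. Regions enriched in shCTRL cells only were down in 39 of 93 in DCIS (41.9%), with a median of -0.88, and in 2 of 21 in 10A.

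Regions enriched in neither group still held 419 of the 869 up regions in 10A (48.2%) and 436 of the 625 in DCIS (69.8%). These regions had a median width of 500 bp in both lines, compared with 2000 bp and 2100 bp for regions enriched in both groups. Among all up regions of the tables, the corresponding shares were 29.9% and 61.5%. Enrichment over input in shANCO1 cells was seen for 51.8% of the up flank regions in 10A and 30.2% in DCIS, against 70.0% and 38.4% of all up regions. Most up flank regions in DCIS thus lay at sites listed in neither comparison with input, a trait they shared with other classes under 3000 bp. In DCIS this share was 71.3% of up isolated intergenic, 75.3% of up intronic and 63.4% of up promoter regions. In 10A it was 44.2%, 47.7% and 29.1%. All regions also include wider ones.

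The H3K27Ac at flank regions was then set beside that at the promoter of the gene they flank. A promoter-annotated region of the nearest gene was present in the table for 1728 of the 10A regions (75.2%), at 1330 genes, and for 1482 of the DCIS regions (73.9%), at 1132 genes. Promoter regions of any width were used, and a gene could have several. Its promoter was counted as up, or as down, when any of them was. A gene could therefore count in both directions. The shares that follow are not comparable with the shares of single promoter regions given above. In 10A, an up promoter region accompanied 504 of 651 up flank regions (77.4%) and 764 of 1077 flank regions that were not up (70.9%). In DCIS the same shares were 198 of 452 (43.8%) and 254 of 1030 (24.7%). The flank region and the promoter region with the lowest FDR had a Spearman correlation across regions of 0.0926 in 10A (1728 regions) and 0.34 in DCIS (1482 regions). Regions at a shared gene use the same promoter value, and all values come from the same libraries, so these correlations are descriptions only.

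The calls of a flank region and its promoter also differed often. In 10A, 147 up flank regions had a promoter that was not up, and in DCIS 254 did. Most of these promoters had no call in either direction, which does not show that they were unchanged. In 18 cases in DCIS and 1 in 10A, an up flank region accompanied a promoter region that was down. Of the 86 down flank regions in DCIS with a promoter in the table, 23 had a down promoter region and 10 an up one. The log2 fold change exceeded that of the gene's promoter region with the lowest FDR in 33.6% of regions in 10A and 53.4% in DCIS. That promoter region was selected by its FDR and the flank region was not, so these shares do not rank flanks against promoters. Where no promoter region of the nearest gene had been tested, 218 of 571 flank regions in 10A (38.2%) and 173 of 523 in DCIS (33.1%) were up, near the shares over all flank regions.

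Flank regions of the 2 lines overlapped in part. Of the 10A flank regions, 1136 (49.4%) shared at least 1 bp with a tested region of DCIS, and of the DCIS flank regions, 1164 (58.1%) shared a base with a tested region of 10A. Of the 469 up flank regions of 10A with such a partner, 230 (49.0%) were also up in DCIS, compared with 234 (35.1%) of the overlapping regions that were not up in 10A. Over all regions these shares were 32.0% and 26.3%. No flank region was down in both lines, and 11 flank regions called up in 10A overlapped a DCIS region called down. The log2 fold changes in the 2 lines had a Spearman correlation across regions of 0.15 (1136 pairs), and 73.1% of pairs were positive in both. In DCIS, flank regions that met a 10A region were up in 43.8%, with a median of 1.10, while the 841 that met none were up in 13.7%, with a median of 0.18. In 10A, the difference was smaller, 41.3% with a DCIS partner and 34.4% without. Over all regions the shares with and without a partner were 28.4% and 12.7% in DCIS and 51.0% and 33.3% in 10A, a wider gap in 10A than at flank regions.

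**Figure D4:**
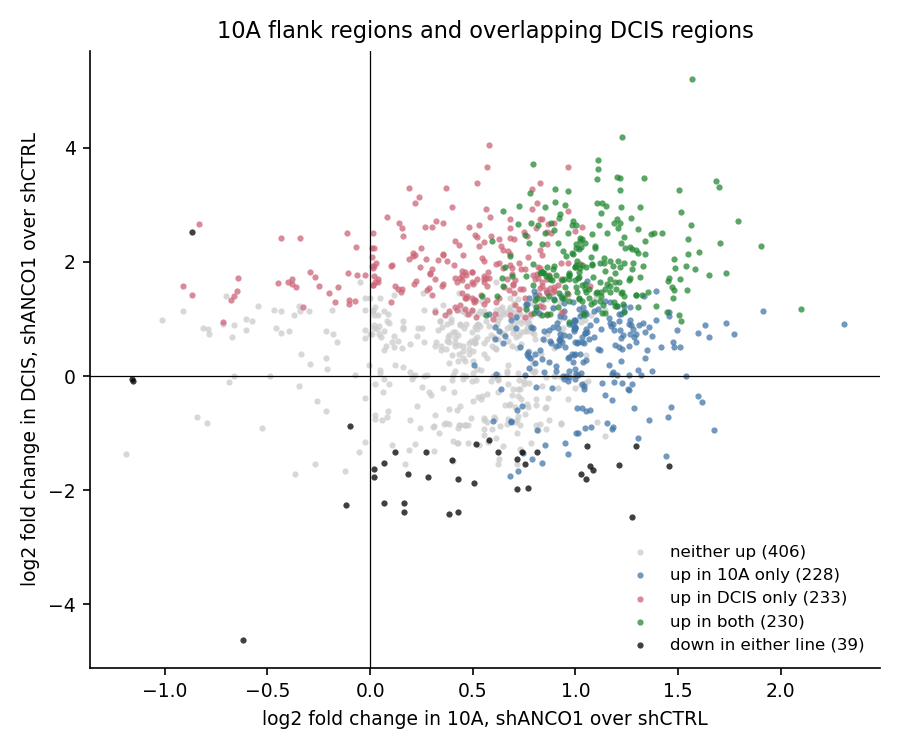
Log2 fold change of 1136 flank regions of 10A (horizontal axis) against that of the DCIS region sharing most bases with each (vertical axis), shANCO1 over shCTRL, coloured by the calls. Up in both lines were 230 pairs (green), 228 were up in 10A only, 233 in DCIS only and 406 in neither, and 39 had a down call in either line (black).

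The pairs with the largest gains in both lines lay beside genes of varied function. Downstream of C5orf63, the log2 fold change was 1.90 in 10A and 2.28 in DCIS. Upstream of PFDN1, a subunit of the prefoldin chaperone, it was 1.79 and 2.72. Downstream of LINC01997 it was 1.69 and 3.42, and downstream of LINC01655 1.70 and 3.32. A region between DAPK1, a death-associated kinase, and CTSL, the lysosomal protease cathepsin L, gave 1.70 and 2.33. A region upstream of CTSB, which encodes the related protease cathepsin B, gave 1.60 and 2.18, with FDR values of 1.18e-06 and 4.02e-08. The remaining 2 pairs lay downstream of TRIOBP, an actin-binding protein (1.73 and 1.81), and ZNF407 (1.65 and 1.77).

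Of the pairs with opposite calls, the widest gap was downstream of CDKN2C, the CDK inhibitor p18, at 1.27 in 10A (FDR 0.00207) and -2.46 in DCIS (FDR 0.00334). The others named had the lowest FDR values over both lines rather than the widest gaps. Between CHD2, a chromatin remodeler, and RGMA the values were 1.21 and -1.56. Beside LOC730668 they were 0.77 and -1.96, and beside MIR2117HG 0.72 and -1.97. A pair of neighbouring 10A regions near LOC112268474 and SCRG1, at 1.30 and 1.06, met a single DCIS region at -1.23.

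The named regions of 10A were chosen by size of change and by FDR. The largest gain was at chr2:238914301-238914800, 3.77 kb downstream of TWIST2, a basic helix-loop-helix factor of mesenchymal cells, with a log2 fold change of 2.73 and 4 of 4 windows up. It had the motif window printed above and was enriched over input in neither group. Among regions with at least 5 windows, the largest gains followed at 7.68 kb downstream of MRPL36, a mitochondrial ribosomal protein (2.54, FDR 2.01e-07), at 8.34 kb downstream of TMEM26 (2.31), and at 6.53 kb downstream of RAPGEF2, an exchange factor for the GTPase RAP (2.14, with 16 of 16 windows up). Regions upstream of an uncharacterized transcript of the X chromosome, at chrX:103397901-103399400 (2.14), downstream of LINC02594 (2.12) and downstream of AP3S2, a subunit of the AP-3 sorting complex (2.10), completed these. The promoter regions of MRPL36 (0.75, FDR 0.131) and RAPGEF2 (0.56, FDR 0.126) did not pass the FDR, whereas that of AP3S2 did (0.97, FDR 0.000185).

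The lowest FDR in 10A belonged to a region 8.92 kb upstream of C2orf16 (log2 fold change 1.97, FDR 6.84e-09), followed by one 2.10 kb downstream of DNAJB5, an HSP40 co-chaperone (1.46, FDR 1.52e-08). Their 15 of 15 and 16 of 16 windows were up, and both were enriched over input in shANCO1 cells only. The promoter region of DNAJB5 was up by nearly the same amount (1.42, FDR 0.000121). A region 7.94 kb downstream of HBEGF, a ligand of the EGF receptor, was up with 24 of 28 windows (1.34, FDR 3.47e-07).

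The 5 down regions of 10A were small changes beside these. They lay downstream of LINC02385 (-1.22), upstream of GABRP, a GABA receptor subunit (-1.16), downstream of METTL7A (-1.15), upstream of LINC00114 (-1.14) and downstream of LINC02042 (-0.87). The GABRP region had the lowest FDR of them (0.00166), with 6 of 15 windows down, and was enriched over input in shCTRL cells only. The METTL7A region passed narrowly, at an FDR of 0.0496 with 1 of 9 windows down. The LINC02042 region overlapped a DCIS region that was up by 2.52 (FDR 2.48e-06), the 1 case of a down region in 10A over an up region in DCIS.

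The gains in DCIS were larger, and those named here are again among regions with at least 5 windows. The region with the largest value, at chr1:209382801-209385300 and 2.28 kb downstream of LINC01698, had a log2 fold change of 4.34 with 24 of 24 windows up (FDR 3.71e-13). A region between BATF2, a bZIP transcription factor, and ARL2, a small GTPase, followed with 4.19 and 20 of 20 windows up (FDR 6.99e-16), and its nearest promoter, that of ARL2, did not pass the FDR (0.77, FDR 0.554). Then came regions downstream of NUAK2, an AMPK-related kinase (4.05), of ELFN2 (3.92), of TNKS1BP1, a tankyrase-binding protein (3.84), and of LINC02255 (3.80, FDR 6.99e-16). All of these except the NUAK2 region were enriched over input in shANCO1 cells only, with log2 values over input from 3.22 to 6.08. The overlapping 10A regions had lower values. Those at ARL2 (1.23), ELFN2 (1.07) and LINC02255 (0.85) passed the FDR. Those at LINC01698 (0.58), NUAK2 (0.58) and TNKS1BP1 (0.74) did not.

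Losses in DCIS reached the same size as the gains. The largest was at chr3:154023001-154023600, 0.801 kb downstream of ARHGEF26-AS1, with a log2 fold change of -4.72 and 5 of 5 windows down (FDR 1.58e-07). A region 0.993 kb downstream of KCNJ16, an inward-rectifier potassium channel, was at -4.62 with 15 of 21 windows down, and its promoter region was down as well (-2.48, FDR 0.000903). Both were enriched over input in shCTRL cells only, at log2 values of 7.13 and 4.72. Regions downstream of ADD3-AS1 (-4.22) and upstream of SFRP5, a secreted WNT antagonist (-3.71), and of CBX2, a Polycomb subunit (-3.14, FDR 9.80e-09), were down while enriched in neither group. A region 1.21 kb downstream of GCH1, the first enzyme of tetrahydrobiopterin synthesis, was down with 8 of 8 windows (-3.21).

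Gene groups were followed with 8 lists holding 171 genes, drawn up around pathways that the study discusses. They were assembled with results of these libraries known, so their direction is not independent evidence. In 10A, 64 flank regions lay beside 45 listed genes, of which 21 (32.8%) were up and 0 down, with a median log2 fold change of 0.75, beside 37.8% and 0.73 for all flank regions. In DCIS, 49 lay beside 35 listed genes, of which 24 (49.0%) were up and 2 down, with a median of 1.28, beside 31.2% and 0.76.

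**Figure D5:**
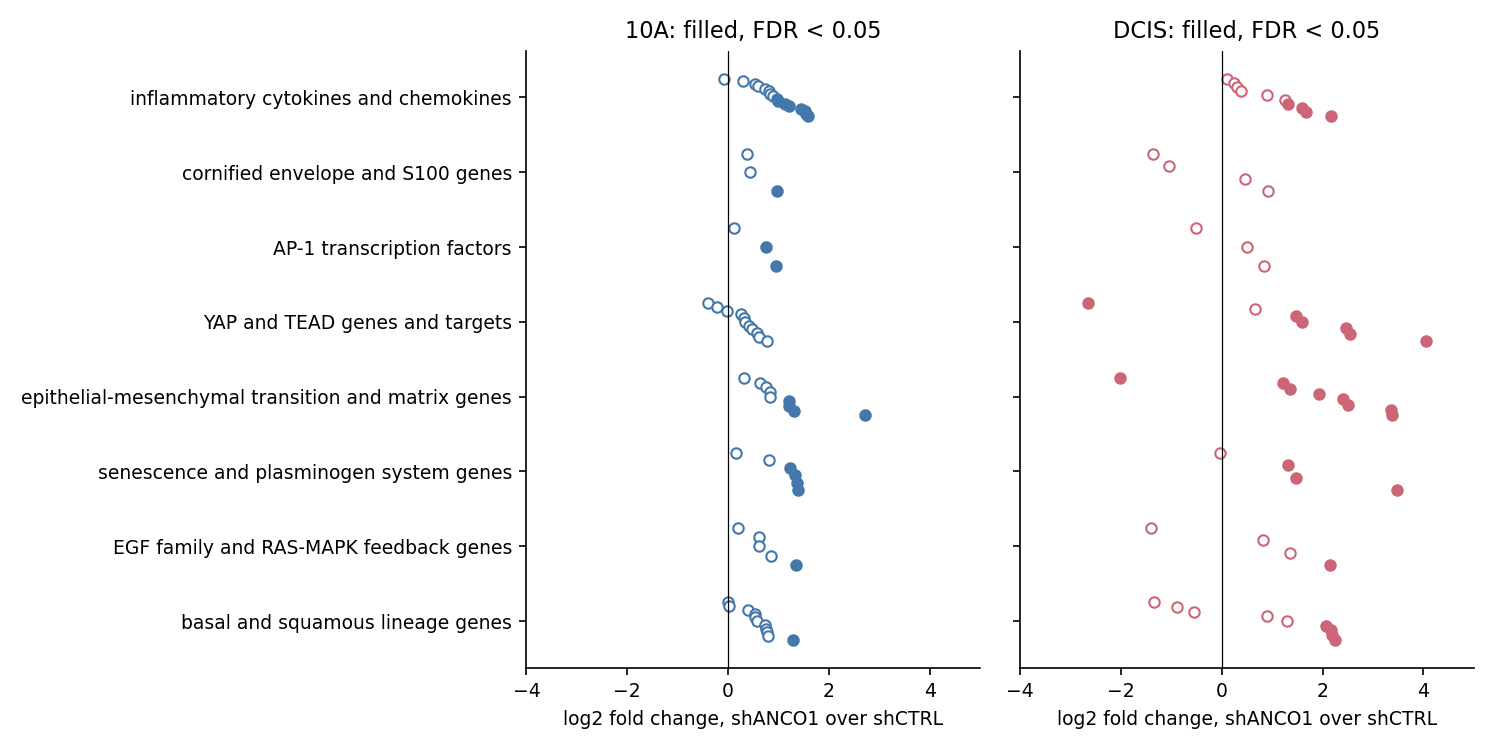
Log2 fold change, shANCO1 over shCTRL (horizontal axis), of each flank region beside a gene of the 8 lists (rows), in 10A (left) and DCIS (right). Filled points passed an FDR under 0.05, which 21 of 64 regions did in 10A, all up, and 26 of 49 in DCIS, with 24 up and 2 down.

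Beside inflammatory cytokines and chemokines, 8 of 16 regions were up in 10A and 4 of 10 in DCIS, with medians of 0.93 and 1.07 and no region down. In 10A the up regions lay beside CXCL1 and CXCL8, which attract neutrophils, beside CCL20, beside CSF2, the growth factor GM-CSF, and beside IL1B and IL24. The region 3.39 kb downstream of CXCL1 had a log2 fold change of 1.59 (FDR 0.00034) and that downstream of CSF2 had 1.53 (FDR 2.96e-05). The region 9.64 kb upstream of CXCL8, which holds a motif window printed above, was up in 10A (1.45, FDR 0.00334) and overlapped an up region in DCIS (1.67, FDR 0.00119). The region upstream of IL24, a cytokine of the IL-10 family, was also up in both lines, at 1.12 (FDR 1.45e-05) and 1.32 (FDR 0.00153), beside an IL24 promoter at 0.94 and 3.18. Of 4 regions beside CCL20 in DCIS, at 0.10 to 1.25, none passed.

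The plasminogen and senescence genes had up flank regions in both lines, 4 of 6 in 10A and 3 of 4 in DCIS, with medians of 1.28 and 1.39. PLAU encodes urokinase and CDKN1A the cell cycle inhibitor p21. The region upstream of PLAU was up by 1.33 in 10A (FDR 0.00635) and by 3.47 in DCIS (FDR 2.87e-09, 11 of 11 windows), where the PLAU promoter region was up by 1.44. The region upstream of CDKN1A was up by 1.23 (FDR 0.00854) and 1.47 (FDR 0.00459). The single region beside PLAUR, the urokinase receptor, was at -0.04 in DCIS.

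Beside genes of epithelial-mesenchymal transition and matrix, 4 of 9 regions were up in 10A, and in DCIS 7 of 8 were up and 1 was down, with medians of 0.83 and 2.17. In 10A these were the TWIST2 region, regions 4.46 kb and 9.46 kb downstream of ZEB2, a repressor of E-cadherin (1.32 and 1.20), and a region between HDAC9 and TWIST1 (1.21, FDR 0.022). In DCIS, a region 0.091 kb past the annotated end of TWIST1 was up by 3.35 with 5 of 5 windows. The TWIST1 promoter region did not pass (0.51, FDR 0.575). Both regions beside TWIST1 lay far from its coding transcription start, at 96736 bp in DCIS and 106036 bp in 10A. Regions beside MMP14, a membrane-bound metalloproteinase (3.38), ITGA3, an integrin subunit (2.50), COL17A1, the hemidesmosome collagen (2.41), and LAMB3, a laminin-332 chain (1.93), were up as well. At TWIST1 (0.98), MMP14 (1.34), ITGA3 (1.10), LAMB3 (1.39) and TGFBI (0.95), the DCIS regions overlapped 10A regions that also passed the FDR. Those 10A regions were 3000 bp or wider or lay on an annotated exon, so the 10A count leaves them out. The overlapping 10A region at COL17A1 did not pass (0.63, FDR 0.119). The region beside SNAI1, a further repressor of E-cadherin, was down (-2.01, FDR 0.018).

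Flank regions beside YAP and TEAD genes and targets had different counts in the lines. None of 11 regions was called in 10A, with a median of 0.35, whereas 5 of 7 were up and 1 down in DCIS, with a median of 1.59. The difference between lines was not tested. The up regions were 3 downstream of NUAK2 (2.46 to 4.05), 1 beside AMOTL2, a junctional inhibitor of YAP (1.59), and 1 beside F3, tissue factor (1.47). The 3 NUAK2 regions lie in 1 locus and are not independent. The NUAK2 regions at 2.46 and 4.05 overlapped 10A regions at 0.77 (FDR 0.0796) and 0.58 (FDR 0.0979). Beside ANKRD1, a much used YAP target, the region was down (-2.65, FDR 0.000387), with 13 of 15 windows down. The absence of calls in 10A was not seen at promoters. There the promoter regions with the lowest FDR were up for NUAK2 (1.57), AMOTL2 (1.64), F3 (1.32), LATS2 (1.52) and PTPN14 (1.04). In DCIS, those of NUAK2 (2.09, FDR 0.000221) and F3 (FDR 0.000177) were up, and that of AMOTL2 did not pass (1.22, FDR 0.0696).

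Flank regions of basal and squamous lineage genes also had different counts, with 1 of 11 up in 10A and 4 of 9 in DCIS and medians of 0.57 and 1.28. The 10A region lay 9.09 kb downstream of TFAP2A (1.28, FDR 0.00156) and overlapped a DCIS region at -0.55 (FDR 0.477). In DCIS the up regions lay beside KRT6B, a keratin of stressed epithelium (2.16, with 23 of 23 windows), beside the desmosome gene PKP1 (2.24 and 2.18), and between the desmosome genes DSG3 and DSG2 (2.07, a single window nearer to DSG2). The KRT6B region overlapped a 10A region that passed too (1.49, FDR 0.00263). That 10A region was 3000 bp or wider and so is not among the 11. Overlapping 10A regions at PKP1 (0.02, FDR 0.968) and DSG2 (0.74, FDR 0.0847) did not pass. Regions beside KRT5 in DCIS were at -0.89 and -1.34 and did not pass. The difference in counts was not seen at promoters. In 10A, promoter regions of TFAP2A (0.99), KRT5 (1.10), KRT6A (0.88), KLF5 (0.89), TP63 (1.15) and DSP (0.64) were up. That of KLF4 was not (0.64, FDR 0.115). In DCIS, promoter regions of TFAP2A (1.81), PKP1 (1.03) and DSC3 (1.72) were up. Those of KRT5 (-0.61), KRT6B (1.11), KLF4 (0.63) and DSG2 (-0.95) did not pass.

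The remaining lists had few flank regions. Beside the EGF ligand HBEGF, a region was up in both lines, at 1.34 in 10A and 2.14 in DCIS (FDR 0.000405), and these were the 1 up region of 5 and of 4 in this list. Of AP-1 transcription factor genes, ATF3 (0.95, FDR 0.0231) and JUND (0.74, FDR 0.0149) had an up region in 10A, and none of 3 regions passed in DCIS. Of the list of cornified envelope and S100 genes, only S100A9 and S100A10 had flank regions, in either line. A single region between S100A9 and S100A12 was up in 10A (0.96, FDR 0.0259), overlapping a DCIS region at -1.36 (FDR 0.188). None of 4 regions passed in DCIS.

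Sequence was read in the 500 bp at the midpoint of each region. The 696 flank regions in 10A and 745 in DCIS of 200 to 400 bp are narrower than this window. A match counted for them can therefore lie just outside the region, and the outer parts of wide regions were not read. An AP-1 motif, TGACTCA or TGAGTCA, was present in 23.7% of flank regions in 10A and 20.8% in DCIS, against 18.3% and 15.4% of all regions. The shares were similar in isolated intergenic regions (24.6% and 20.7%) and intronic regions (21.7% and 20.0%), and lower at promoters (13.3% and 10.7%). Within flank regions it was present in 248 of 869 up regions (28.5%) and 296 of 1425 regions not called (20.8%) in 10A. In DCIS it was present in 178 of 625 up regions (28.5%), 227 of 1264 not called (18.0%) and 13 of 116 down regions (11.2%). Read the other way, flank regions with the motif were up in 45.6% in 10A and 42.6% in DCIS, and those without it in 35.4% and 28.2%. Over all regions the order was the same, with 48.4% and 39.1% up among those with the motif and 42.5% and 20.8% among those without it. The same order was seen in isolated intergenic regions, where 30.8% and 28.3% of up regions and 21.3% and 17.9% of those not called held the motif. Up promoters held it in 14.8% and 24.2%. The share was highest, at 31.5% and 34.5%, in flank regions enriched over input in shANCO1 cells only.

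The other motifs varied less with the call. The TEAD motif GGAATG, searched on both strands, was present in 32.7% of up flank regions and 32.6% of those not called in 10A, and in 33.1% and 28.8% in DCIS, with 20.7% of down regions. The NF-kB motif was present in 7.25% and 7.93% in 10A and 6.72% and 8.07% in DCIS, and the STAT3 motif TTCCNGGAA in 2.99% and 2.32%, and in 1.60% and 1.98%. Over all regions, the TEAD motif was present in 27.9% and 27.1%. Up flank regions had a median GC content of 46.8% in 10A and 48.2% in DCIS, beside 45.8% and 49.2% for those not called, so base composition moved little with the call. A match is a description of the letters in the window and not evidence that a factor was bound there, and these differences were not tested.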

How the data were processed

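H3K27Ac ChIP-seq and input libraries of 10A and DCIS cells with shANCO1 or shCTRL were analysed from the 6 deposited tables. The study's methods name BWA 0.7.17 and Rsubread for alignment to GRCh38, samtools for removal of duplicates, csaw for the test between groups and ChIPpeakAnno for gene annotation. The deposited log2 fold change belongs to a representative window of each region. The deposited FDR, an adjusted p-value, was computed by the authors for each region over all regions of a table. Other deposited values are numbers of windows, not reads. Normalization, window filter and merging were not given in the sources used here.

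Depth was unknown, so no interval or test over samples could be made, and significance is the authors' FDR over whole tables. Overlap was at least 1 bp, and a partner in the other line was the region sharing most bases. The nearest flanked gene gave side and distance. Scripts were checked on simulated data.

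Members and gene lists were chosen with earlier results of these data known. Named in each line were the 6 up and 4 down regions with the largest change among those with an FDR under 0.05 and at least 5 windows, the 5 up and 3 down with the lowest FDR, and up to 4 called regions per list. Across lines, the 8 pairs up in both with the largest smaller change and the 6 pairs with opposite calls and the lowest larger FDR were named, and 7 sequence windows were printed. Regions beside some named genes are not reported here. A 10-letter NF-kB consensus was used. Alternatives were other FDR and fold-change limits, centring, window number, width, GENCODE gene bodies, overlap rules and motif windows. Python 3.11.15, pandas 2.3.3, numpy 2.4.6 and scipy 1.17.1 were used.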

Additional observations from a re-analysis of the deposited data

How the results depend on the processing

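No paired analysis was possible because the deposited tables hold 1 value per region for a whole group, and for the same reason no replicate could be left out. Of 75 alternatives over 23 counts, 48 stayed within 1.5 times the count reported. An FDR under 0.01 gave 469 up and 2 down flank regions in 10A and 69 down in DCIS, with 309 downstream and 160 upstream regions up in 10A, 296 of the up regions enriched over input in shANCO1 cells, 150 with an AP-1 motif, and 191 (10A) and 110 (DCIS) with an up promoter. It also gave 122 regions of 10A up in both lines. An FDR under 0.1 gave 13 down regions in 10A. A limit of 1 log2 unit on the fold change gave 578 up in 10A, and centring on the median of the line gave 32, of which 21 were downstream and 11 upstream. At least 5 windows left 369 up and 73 down in DCIS, with 228 downstream and 141 upstream up. At least 50% coverage by enriched regions left 186 (10A) and 50 (DCIS) up regions enriched in shANCO1 cells. Leaving out regions in GENCODE gene bodies left 3 down in 10A, and a reciprocal overlap of at least 50% left 138 up in both lines. Motif windows of 200 bp and 1000 bp gave 108 and 418 up regions with AP-1 in 10A, and 66 and 323 in DCIS. The share of up flank regions stayed below that of all regions in 10A and above it in DCIS at an FDR under 0.01 (20.4% and 25.5%, 22.6% and 16.4%), at an FDR under 0.1 (47.2% and 53.1%, 36.6% and 27.9%) and with at least 5 windows (48.6% and 54.7%, 35.5% and 24.1%), but centring turned the order in 10A (1.39% and 1.14%). The cause of these shifts was not tested. Unknown depth limits every value, and a region that is not called is not shown to be unchanged.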

Other observations

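Several genes were flanked by a run of regions that all moved one way in DCIS. The genes in this and the next paragraph were chosen after their values were seen, and regions beside the same gene lie in 1 locus and are not independent. All 5 regions beside RHOH, a GTPase-deficient signalling protein of blood cells, were up in DCIS, with log2 fold changes from 2.13 to 3.24, 2 of them upstream of the gene and 3 downstream. All 5 overlapped up regions of 10A that were 3000 bp or wider, at 0.86 to 1.07. The 3 regions downstream of ATP13A3-DT were up in DCIS by 3.24 to 3.98, and 3 of 4 were up in 10A, by 0.96 to 1.28. The 3 regions upstream of DSG2, a desmosomal cadherin, were up by 2.07 to 4.30, and the one at 2.07 is the region between DSG3 and DSG2 given above. A single tested window lay behind the value of 4.30. Beside CD70, a TNF family ligand, 3 of 3 regions were up in 10A (0.94 to 1.55), and in DCIS 2 of 3 passed (1.91 and 2.41).

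Runs of losses were seen in DCIS as well. All 5 regions between XPNPEP1, an aminopeptidase, and ADD3-AS1 were down, from -2.39 to -4.22. Both regions beside CDKN2C were down (-2.46 and -2.00). In total, 513 of 2135 flanked genes in 10A and 408 of 1880 in DCIS had more than 1 flank region.

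By chromosome, the share of up flank regions in DCIS was highest on chromosome 18, with 18 of 30 (60.0%), beside 24.8% of all its regions, and on chromosome 3, with 56 of 126 (44.4%), beside 33.1%. Down flank regions in DCIS made up 14.3% of 105 on chromosome 10, beside 5.38% of all its regions, and the run at XPNPEP1 and ADD3-AS1 lies there. These chromosomes were picked for their values and the differences were not tested. Of the flank regions, 32 in 10A (1.39%) and 23 in DCIS (1.15%) had exactly the log2 fold change of another region of their table, and all 32 in 10A were enriched over input in neither group.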
